A study of Mus musculus with 24 samples.

Results

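The vomeronasal receptor type 1 genes (Vmn1r) encode receptors of the vomeronasal organ, and their chromatin was followed here in a mouse embryonic fibroblast line at day 1 of induced cardiac reprogramming and before it. Members were the protein-coding genes of mouse build mm10 whose symbol starts with Vmn1r, which gave 231 of 21887 protein-coding genes on chromosomes 1 to 19, X and Y. Choosing them used no measured value. CUT&RUN, in which a nuclease guided by an antibody cuts out the DNA around a bound protein, had been run on the line iMGT-Myh6-eGFP-MEF. These fibroblasts carry a doxycycline-inducible set of Mef2c, Gata4 and Tbx5 (MGT) and an eGFP reporter of Myh6. For the day 1 groups, 300000 cells per well were transfected with siJunb, siH1f0 or siControl, and induction with doxycycline at 1 µg/mL followed on the next day. MEF2C was mapped at day 1 under siJunb (n = 3), siH1f0 (n = 3) and siControl (n = 2). Linker histone H1.0 and trimethylated lysine 9 of histone H3 (H3K9me3) were mapped at day 1 under siControl (n = 2 each) and in the ground state (n = 2 each). Ground-state cells were not reprogrammed, and their labels give neither siRNA nor doxycycline, although their library names carry siControl. Transfection, medium, induction and time therefore cannot be told apart in the comparison of day 1 with the ground state. About 250000 cells were used per condition. The line came from fibroblasts, and RNA was not measured in the libraries used here, so its identity and the knockdowns were not checked.

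Vomeronasal sensory neurons of the apical layer each choose a Vmn1r gene, and the receptor signals through the G protein subunit Gnai2, phospholipase C and the channel Trpc2. The genes are short, lie in tandem arrays that expanded by duplication, and are not known to act in fibroblasts. H3K9me3 is the mark of constitutive heterochromatin, and H1.0, encoded by H1f0, is a linker histone that accumulates in differentiated cells.

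Each library is represented by a list of peaks, the stretches that the authors' peak caller marked as enriched, and cover means the percentage of a gene body's bases that lie in peaks of a list. The lists differed in extent. H3K9me3 peaks covered 109 and 363 Mb at day 1 (replicates 1 and 2), against 65.9 and 315 Mb in the ground state. H1.0 peaks covered 911 and 28.6 Mb at day 1, against 93.0 and 1109 Mb in the ground state. The names of the lists fall into 2 naming series, and each mark has 1 list per state in each. The first holds the short lists (H3K9me3 replicates 1, H1.0 day 1 replicate 2 and H1.0 ground-state replicate 1) and the second holds the long ones. No source used here says what the series stand for, and differences are given within each series as well as pooled.

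The 231 genes lay in 16 clusters when neighbours less than 500 kb apart were joined. Chromosome 7 held 126 genes in 8 clusters, chromosome 6 held 51 in 3, chromosome 13 held 36 in a single array and chromosome 17 held 14 in another. The other 4 lay on chromosome 4 (2 genes), chromosome 1 and chromosome 18. The 10 clusters with at least 5 members held 222 genes. Vmn1r gene bodies ran from 870 to 33695 bp with a median of 924 bp, against a median of 17169 bp for all protein-coding genes. A body this short often lay wholly inside or wholly outside a peak. The gene table gives neither strand nor exons, and positions within a gene are therefore not resolved into exon, intron or UTR.

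H3K9me3 covered a larger part of Vmn1r bodies than of the average gene in 3 of the 4 lists, and most of that cover came from chromosome 13. Mean cover of the Vmn1r genes was 3.60% and 18.4% in the day 1 lists, against 1.37% and 12.9% in the ground-state lists. Over all protein-coding genes the same means were 2.67% and 7.10% at day 1, against 1.75% and 6.50% in the ground state. The Vmn1r mean was thus below the gene average in ground-state replicate 1 and above it in the other lists. At least 50% of the body was covered in 7 and 44 Vmn1r genes at day 1 (1.67% and 5.7% of all protein-coding genes), against 3 and 32 in the ground state (1.04% and 4.85% of all). Vmn1r193 alone passed 50% in all 4 lists, with cover of 100% in each (0.726% of all protein-coding genes passed). Some cover in all 4 lists was found for 3 members (11.6% of all). No base of the body was covered in any list for 177 members, or 76.6%, against 69.8% of all protein-coding genes. H3K9me3 thus lay on a minority of the family. These counts were not adjusted for length. A short body meets a peak less often than a long one, but once met it passes 50% cover more readily.

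**Figure D1:**
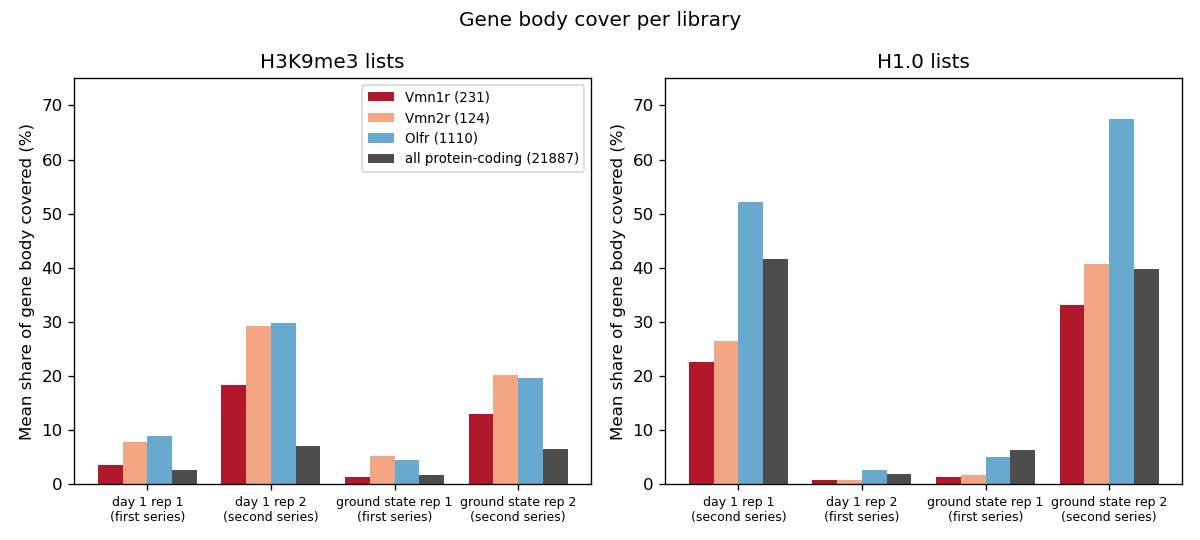
Mean percentage of the gene body covered (vertical axis) in each H3K9me3 list (left) and H1.0 list (right) for Vmn1r, Vmn2r and Olfr genes and for all protein-coding genes; bars start at 0 and each bar is 1 library, with its naming series under it. Bars differ more between the first and second naming series than between day 1 and the ground state within a series, and Vmn1r bars stay below those of Olfr in all 8 lists.

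At day 1 the mean H3K9me3 cover of Vmn1r genes was 11.0% ± 10.5 (SD, n = 2), against 7.15% ± 8.18 (SD, n = 2) in the ground state. The difference of 3.85 percentage points was smaller than the spread between replicates. Within the naming series, day 1 exceeded the ground state by 2.23 points in the first and by 5.48 points in the second, against 0.919 and 0.602 points over all protein-coding genes. The array on chromosome 13 supplied much of this, and the 195 other members gave a pooled difference of 1.83 points. An exact two-sided permutation test per gene, on all protein-coding genes, cannot go below p = 0.333 with 2 against 2 libraries, so no gene could pass 0.05 and none had an unadjusted p under it. The counts of genes whose groups do not overlap are therefore descriptions.

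For 4 Vmn1r genes both day 1 lists lay above both ground-state lists (0.777% of all protein-coding genes did), and for 0 both lay below (0.397%). Vmn1r-ps103, annotated as protein-coding despite its pseudogene symbol, had cover of 46.4% and 100% at day 1, against 0% and 0% in the ground state. Vmn1r198 had 100% and 100% at day 1, against 0% and 55.9% in the ground state. Vmn1r197 had 6.69% and 100% at day 1, against 0% and 0% in the ground state. All 3 lie in the chromosome 13 array. Vmn1r30, on chromosome 6, had 14.1% and 69.1% at day 1, against 0% and 8.09% in the ground state. Counted within series, 26 members were higher and 9 lower at day 1 in the second (12.6% and 14.8% of all protein-coding genes), and 15 were higher and 3 lower in the first (14.5% and 5.77%). Higher in both series were 6 members (6.6%), and lower in both were 0 (3.11%). The share of members higher at day 1 in both series was 2.60%, below the share of all genes.

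**Figure D2:**
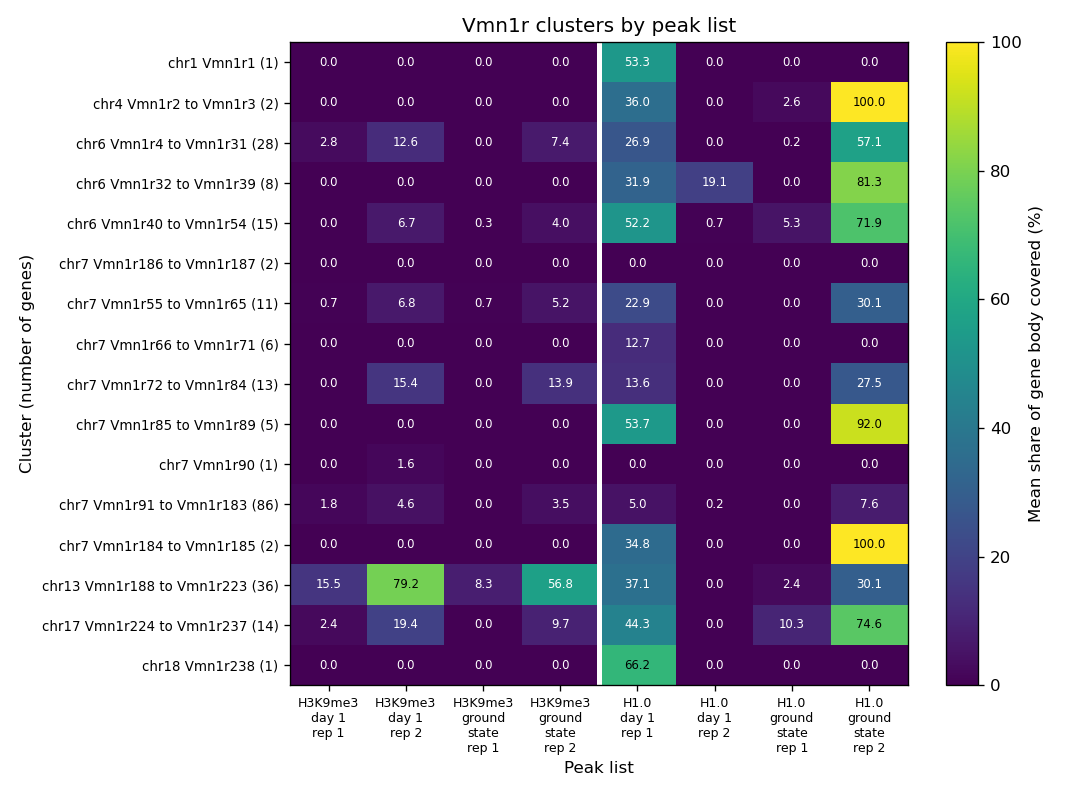
Mean percentage of the gene body covered for the 16 Vmn1r clusters (rows, with chromosome, first and last gene and number of genes) in the 4 H3K9me3 and 4 H1.0 lists (columns); colour and printed value give the same number. The chromosome 13 array stands highest in all 4 H3K9me3 lists, and the largest chromosome 7 array is low in all 8 lists.

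The chromosome 13 array, chr13:22087878-23250323, holds Vmn1r188 to Vmn1r223 over 1162 kb. Its 36 genes had mean H3K9me3 cover of 15.5% and 79.2% at day 1, against 8.33% and 56.8% in the ground state. The 195 members elsewhere had 1.40% and 7.19% at day 1, against 0.0808% and 4.85% in the ground state. The array held 6 of the 7 and 29 of the 44 members with at least 50% cover at day 1, and 3 of the 3 and 22 of the 32 in the ground state. It was singled out after its cover had been seen, so its contrast with the other clusters is a description. The whole span, genes and the DNA between them, was covered to 23.8% and 87.7% at day 1, against 10.3% and 74.0% in the ground state. Peaks in the array numbered 197 and 40 at day 1, against 50 and 113 in the ground state. The widest measured 7487 and 149774 bp at day 1, against 8303 and 37261 bp in the ground state. In the second naming series the day 1 list thus had fewer and wider peaks over a larger part of the array.

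Among the genes of the array, H3K9me3 of the second naming series stopped short of both ends. The first gene touched lay 90.8 kb into the array, and the last ended at 1097 kb of its 1162 kb. In the second naming series, the 100 kb before the array was covered to 2.13% at day 1 and 2.34% in the ground state, and the 100 kb after it to 16.4% at day 1 and 14.3% in the ground state. The array lies between blocks of replication-dependent histone genes. Zfp184, which lies among those before the array, had H3K9me3 cover of 17.7% and 24.8% at day 1, against 18.2% and 23.6% in the ground state. All 46 histone genes within 500 kb had H3K9me3 cover of 0% in each of the 4 lists. Their mean H1.0 cover was 88.3% and 6.20% at day 1, against 15.3% and 91.6% in the ground state. On chromosome 13, the 39 Vmn1r pseudogenes had mean H3K9me3 cover of 25.1% and 72.0% at day 1. In the ground state they had 15.4% and 54.0%. On other chromosomes the means were 4.80% and 16.0% at day 1, against 1.94% and 8.33% in the ground state. These were above the means of the 195 members outside the array in each list. Over all 142 Vmn1r pseudogenes the means were 10.4% and 31.4% at day 1, against 5.63% and 20.9% in the ground state.

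**Figure D3:**
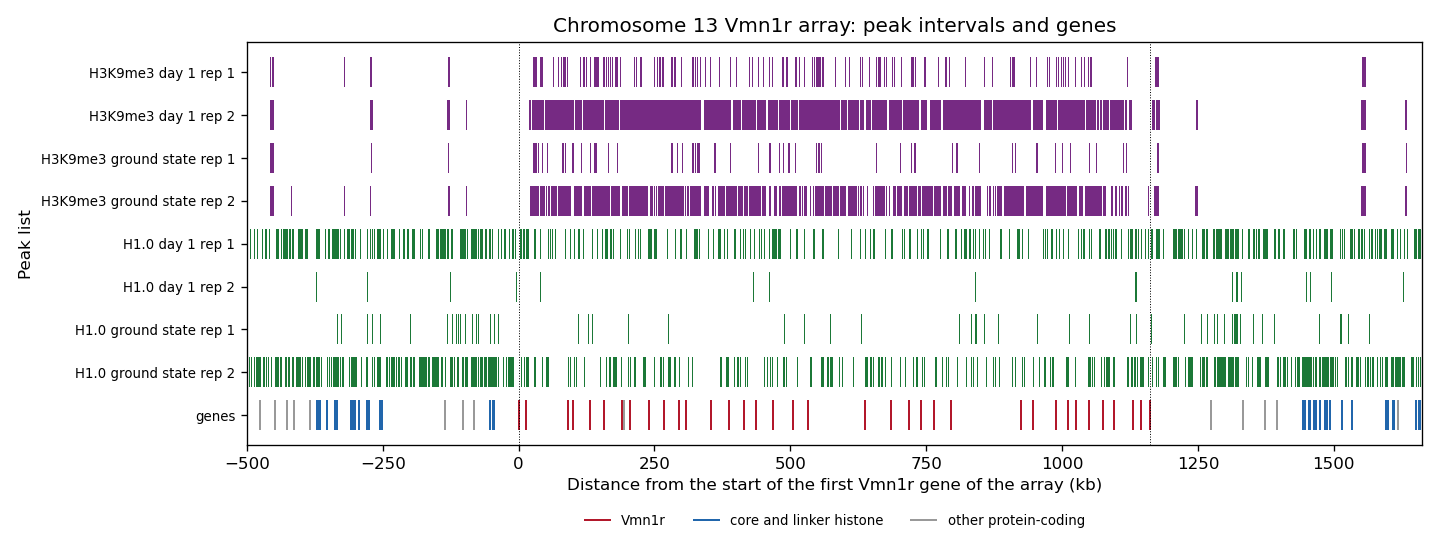
Peaks of the 4 H3K9me3 lists (purple) and 4 H1.0 lists (green), 1 row per list, over the chromosome 13 Vmn1r array and 500 kb on each side, by distance in kb from the start of the first Vmn1r gene; ticks in the lowest row are genes and dotted lines mark the ends of the array. H3K9me3 fills most of the array in both replicates 2 (87.7% of the span at day 1 and 74.0% in the ground state). None of the flanking histone genes is covered, while Zfp184, among those before the array, is covered in part.

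Most genes of the array were marked in both states of the second naming series. Some of the body was covered in 30 of 36 genes at day 1, against 23 in the ground state, and all 23 were among the 30. Of all 21887 protein-coding genes, the same lists touched 5205 at day 1 and 5988 in the ground state, the opposite order. The 7 touched at day 1 alone in that series were Vmn1r192, Vmn1r197, Vmn1r-ps103, Vmn1r204, Vmn1r206, Vmn1r208 and Vmn1r220. Vmn1r192 shows how far replicates differ, since its cover was 0% and 100% at day 1, against 100% and 0% in the ground state. Vmn1r215, with 0% and 100% at day 1, against 100% and 100% in the ground state, had its lowest value at day 1. When each list was trimmed to its strongest peaks until all covered 65.9 Mb, the array mean was 6.02% and 43.7% at day 1, against 8.33% and 13.9% in the ground state. At equal extent the array was thus lower at day 1 in the first naming series and higher in the second.

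The array's 6 members with no H3K9me3 in any list were Vmn1r188 and Vmn1r189 at its beginning, Vmn1r221, Vmn1r222 and Vmn1r223 at its end, and Vmn1r207 in the interior. Their promoter windows show that Vmn1r188 and Vmn1r189 each have a near-copy at the other end, in Vmn1r222 and Vmn1r221. Vmn1r223, the last gene, had at most 61.3% identity with any other window of the array. The windows below, from RefSeq (build GRCm38.p6), run 5′ to 3′ from 250 bases before to 50 bases after the start, which for each gene printed here is also its start in the gene table, and capitals mark bases that differ from the partner or lie opposite a gap. Vmn1r189 (chr13:22102616-22102915, minus strand) and Vmn1r221 (chr13:23217123-23217422, plus strand), both free of H3K9me3 at opposite ends, are 98.0% identical.
Vmn1r189: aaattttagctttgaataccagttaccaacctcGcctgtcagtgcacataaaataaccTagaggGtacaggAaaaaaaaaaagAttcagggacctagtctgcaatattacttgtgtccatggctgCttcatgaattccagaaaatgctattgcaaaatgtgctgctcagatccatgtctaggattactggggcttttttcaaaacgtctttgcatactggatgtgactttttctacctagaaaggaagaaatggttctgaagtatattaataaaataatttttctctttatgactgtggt
Vmn1r221: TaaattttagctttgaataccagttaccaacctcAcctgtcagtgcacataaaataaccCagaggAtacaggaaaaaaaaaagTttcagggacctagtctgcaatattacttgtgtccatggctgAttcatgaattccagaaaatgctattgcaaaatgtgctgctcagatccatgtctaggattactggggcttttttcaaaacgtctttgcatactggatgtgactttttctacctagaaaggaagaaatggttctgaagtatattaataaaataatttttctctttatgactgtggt
Vmn1r207 (chr13:22726573-22726872, minus strand), free of the mark, and Vmn1r209 (chr13:22806469-22806768, minus strand), with cover of 0% and 100% at day 1 and 0% and 24.7% in the ground state, are 94.7% identical.
Vmn1r207: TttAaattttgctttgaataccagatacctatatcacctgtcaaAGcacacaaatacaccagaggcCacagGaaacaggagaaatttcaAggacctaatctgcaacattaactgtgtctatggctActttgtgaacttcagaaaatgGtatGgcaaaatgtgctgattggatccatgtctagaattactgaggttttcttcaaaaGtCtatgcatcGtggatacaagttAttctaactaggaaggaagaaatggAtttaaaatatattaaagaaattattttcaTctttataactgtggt
Vmn1r209: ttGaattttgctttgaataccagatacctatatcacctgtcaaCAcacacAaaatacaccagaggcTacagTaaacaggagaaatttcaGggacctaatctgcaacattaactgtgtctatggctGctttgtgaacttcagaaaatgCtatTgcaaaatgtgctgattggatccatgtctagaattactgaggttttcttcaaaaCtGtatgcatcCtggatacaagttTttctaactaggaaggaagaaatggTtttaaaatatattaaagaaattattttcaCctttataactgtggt
The windows of Vmn1r188 and Vmn1r222 are likewise 95.3% identical. Windows alike to this degree thus occurred both between genes that are free of the mark and across a free and a marked gene. Over the 33 genes of the array with a window, identity had a median of 67.7% in 15 pairs of free genes, 62.3% in 162 mixed pairs and 61.7% in 351 pairs in which both were touched in the second series.

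H1.0 behaved differently at these genes. In the second naming series, mean H1.0 cover at day 1 was 29.8% over the 30 genes of the array with H3K9me3 and 73.4% over the 6 without it. In the ground state it was 23.3% over the 23 array genes with H3K9me3 in that series and 42.1% over the 13 without it. The ground-state median was 0% in both sets. By bases of the array's span, H1.0 covered 26.0% inside H3K9me3 and 31.8% outside at day 1, and 21.8% and 30.6% in the ground state. H1.0 covered 100% of Vmn1r189 in the second-series lists of both states, and 98.2% of Vmn1r207 at day 1 and 100% in the ground state. Vmn1r188 was the exception, with 0% in all 4 H1.0 lists. Outside the array the order of the pooled means turned round. There mean H1.0 cover at day 1 was 25.4% over 18 members with H3K9me3 and 19.3% over 177 without, and in the ground state 43.3% over 16 with it and 32.9% over 179 without. The largest chromosome 7 array held 82 of the members without H3K9me3 in each state. By bases of a cluster's span the order differed between clusters. From Vmn1r4 to Vmn1r31, H1.0 covered 22.1% inside H3K9me3 and 31.2% outside at day 1, and 25.7% and 45.1% in the ground state. In the largest chromosome 7 array the values were 22.0% and 6.03% at day 1, and 27.9% and 5.63% in the ground state. The sets came from the H3K9me3 lists and the values from the H1.0 lists, each from 1 library per state, so no test was made.

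Vmn1r gene bodies had less H3K9me3 than the DNA between them. In the 10 clusters of at least 5 genes, pooled bodies (349 kb) were covered to 3.24% and 16.2% at day 1, while the DNA between them (10194 kb) was covered to 6.68% and 24.8%. In the ground state the bodies were covered to 1.33% and 11.6%, and the DNA between them to 3.67% and 21.6%. Mean body cover was below the cover between genes in 10 and 9 of the 10 clusters at day 1, and in 8 and 9 in the ground state, and in the remaining clusters both were 0. With bases pooled within a cluster, 1 cluster had more cover in bodies in each of the 4 lists. Pooled H1.0 cover of the second naming series ran the other way, with 24.4% of pooled bodies and 20.9% of the DNA between them covered at day 1, and 37.6% and 25.9% in the ground state. With bases pooled within a cluster, H1.0 cover was higher in bodies in 5 of the 10 clusters at day 1 and in 7 in the ground state. In the first series bodies had less H1.0 than the DNA between them, as for H3K9me3, with 0.464% and 0.635% at day 1, and 1.14% and 1.56% in the ground state. The DNA between genes includes the pseudogenes and repeats, and what part of it can be read was not tested.

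In the other clusters fewer genes were marked, while the DNA between genes in day 1 replicate 2 was covered to 35.1% in the chromosome 17 cluster, 30.5% from Vmn1r72 to Vmn1r84 and 28.6% from Vmn1r4 to Vmn1r31. On chromosome 6, Vmn1r26 had the highest mean of the cluster from Vmn1r4 to Vmn1r31, with cover of 48.0% and 49.4% at day 1, against 0% and 100% in the ground state. Vmn1r48 led the cluster from Vmn1r40 to Vmn1r54, with 0% and 99.8% at day 1, against 4.40% and 54.1% in the ground state. On chromosome 17, Vmn1r227 had 0% and 100% at day 1, against 0% and 68.4% in the ground state. Each of these genes was thus marked in some lists and free in others, with groups that overlapped. On chromosome 7, Vmn1r175 had 96.4% and 100% at day 1, against 3.83% and 100% in the ground state. Vmn1r82 had 0% and 100% at day 1, against 0% and 100% in the ground state. Vmn1r65 had 0% and 50.6% at day 1, against 0% and 36.6% in the ground state. The lowest member of each of the 10 clusters was at 0% in all 4 lists, and in the clusters from Vmn1r32 to Vmn1r39, Vmn1r66 to Vmn1r71 and Vmn1r85 to Vmn1r89 no member had any cover. Vmn1r1 to Vmn1r10, the first 10 members without H3K9me3 in genome order, lay on chromosomes 1, 4 and 6. H1.0 reached most of these 10 in the second naming series, for example Vmn1r5 with 45.8% at day 1 and 92.1% in the ground state, and Vmn1r8 with 1.90% at day 1 and 100% in the ground state.

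H1.0 covered Vmn1r bodies less than the average gene in all 4 lists. Mean cover was 22.6% and 0.770% at day 1, against 1.39% and 33.1% in the ground state. Over all protein-coding genes it was 41.6% and 1.84% at day 1, against 6.42% and 39.7% in the ground state. Without the largest chromosome 7 array, the 145 other members had 48.3% in ground-state replicate 2, above all genes, and stayed below them in the other 3 lists. At least 50% of the body was covered in 52 and 2 members at day 1 (36.2% and 0.343% of all protein-coding genes), against 4 and 80 in the ground state (1.54% and 34.7% of all). In ground-state replicate 2 the family's share of 34.6% was close to that of all genes, and in day 1 replicate 1, from the same naming series, its 22.5% was lower. No member passed 50% in all 4 lists (0.0731% of all), 0 members had some cover in all 4 (26.9% of all), and 113 members, or 48.9%, had no H1.0 in any list, against 5.56% of all protein-coding genes. A short body meets a peak less often than a long one, but passes 50% more readily once met. The counts of H1.0 cover were not adjusted for length.

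Pooled, H1.0 cover of Vmn1r genes was 11.7% ± 15.4 (SD, n = 2) at day 1 and 17.3% ± 22.5 (SD, n = 2) in the ground state. The difference of -5.60 percentage points lay well within the spread between replicates. Within the naming series it was -0.616 points in the first and -10.6 points in the second, against -4.59 and 1.89 points over all protein-coding genes. In the second series 34 members were higher and 76 lower at day 1 (50.6% and 42.1% of all protein-coding genes), and in the first 4 were higher and 7 lower (9.52% and 49.3%). Higher in both series was 1 member (4.52%), and lower in both were 4 (19.7%). Vmn2r genes differed by -14.3 points and Olfr genes by -15.4 points in that series, so these chemoreceptor families lay on the same side there. The second-series lists differ in peak width (median 969 bp at day 1 and 1880 bp in the ground state), and the part this plays was not tested.

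For a single Vmn1r gene, both day 1 H1.0 lists lay above both ground-state lists (0.567% of all protein-coding genes). This was Vmn1r48, with H1.0 cover of 33.0% and 10.0% at day 1, against 0% and 0% in the ground state. For 3 genes both day 1 lists lay below (0.873%). Vmn1r42 had 0% and 0% at day 1, against 79.6% and 100% in the ground state. Vmn1r218 had 0% and 0% at day 1, against 17.5% and 100% in the ground state. Vmn1r2 had 0% and 0% at day 1, against 5.21% and 100% in the ground state. These are the members whose H1.0 groups did not overlap. Vmn1r236 had the highest mean over the 4 lists, with 100% and 0% at day 1, against 64.1% and 100% in the ground state. Vmn1r7 was among the members at 0% throughout.

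H1.0 cover differed widely between clusters in the second naming series. The cluster from Vmn1r85 to Vmn1r89 had 53.7% at day 1 and 92.0% in the ground state, and the cluster from Vmn1r32 to Vmn1r39 had 31.9% at day 1 and 81.3% in the ground state. The chromosome 17 cluster had 44.3% at day 1 and 74.6% in the ground state. The cluster from Vmn1r40 to Vmn1r54 had 52.2% at day 1 and 71.9% in the ground state. All of these were lower at day 1, while the chromosome 13 array was higher at day 1, with 37.1% against 30.1% in the ground state. The cluster from Vmn1r66 to Vmn1r71 was also higher, with 12.7% at day 1 against 0% in the ground state. So were the lone genes Vmn1r1 (53.3% against 0%) and Vmn1r238 (66.2% against 0%). The cluster from Vmn1r32 to Vmn1r39 also held both members that passed 50% in the short day 1 list, where its mean was 19.1%.

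The largest array, chr7:20101158-24055691, with 86 genes from Vmn1r91 to Vmn1r183 over 3955 kb, had little cover by either mark. Its mean H1.0 cover was 4.99% and 0.174% at day 1, against 0% and 7.57% in the ground state. Its mean H3K9me3 cover was 1.80% and 4.65% at day 1, against 0.0445% and 3.55% in the ground state. The 18 other protein-coding genes inside it had mean H1.0 cover of 3.62% at day 1 and 8.09% in the ground state in the second naming series. Their mean H3K9me3 cover was 9.33% and 14.3% at day 1, against 7.30% and 13.9% in the ground state, above the Vmn1r genes of the array and the mean of all genes in each list. Beside the array the H1.0 lists of the second naming series were fuller, with 33.6% of the preceding 100 kb covered at day 1 and 32.1% in the ground state. The following 100 kb was covered to 14.7% and 20.9%, and the array's span to 7.6% and 7.9%. In the short ground-state list the flanks had 4.77% and 5.32%, against 0.754% of the span. In the short day 1 list both flanks had 0%, against 0.142% of the span. The full H1.0 means over the 145 members outside this array were 33.0% and 1.12% at day 1, against 2.21% and 48.3% in the ground state.

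Promoter sequence in this array is largely shared between genes. For each of the 206 members with a RefSeq promoter window, the stretches of 50 bases in the window that also occur in another gene's window were counted. In the array the mean share was 79.4% and the median 100%, and 54 of its 83 windows were shared in full. Means of the other clusters with at least 5 genes ran from 0% to 26.7%. In all, 54 member windows were identical to another, in 21 sets. Outside the array 2 windows were shared in full, those of the neighbours Vmn1r47 and Vmn1r48. The largest set, of 6 genes, includes Vmn1r111 (chr7:20703167-20703466, minus strand) and Vmn1r118 (chr7:20912298-20912597, minus strand), whose windows hold no capital because no base differs.
Vmn1r111: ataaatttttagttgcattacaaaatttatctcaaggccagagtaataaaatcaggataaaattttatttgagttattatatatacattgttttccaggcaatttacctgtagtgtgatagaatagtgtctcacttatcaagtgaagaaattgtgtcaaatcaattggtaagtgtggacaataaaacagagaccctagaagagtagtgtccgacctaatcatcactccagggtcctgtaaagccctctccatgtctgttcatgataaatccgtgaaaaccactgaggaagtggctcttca
Vmn1r118: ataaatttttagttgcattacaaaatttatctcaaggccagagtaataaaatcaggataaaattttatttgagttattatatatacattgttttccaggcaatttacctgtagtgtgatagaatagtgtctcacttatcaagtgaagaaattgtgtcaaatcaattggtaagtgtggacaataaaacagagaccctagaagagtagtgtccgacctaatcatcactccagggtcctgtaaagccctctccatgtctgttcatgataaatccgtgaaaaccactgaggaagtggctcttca
Both genes had 0% cover in all 8 H3K9me3 and H1.0 lists. Over all members with a window, mean H1.0 cover in the second naming series was 3.28% at day 1 and 1.79% in the ground state for the 56 genes whose window was shared in full. It was 31.2% at day 1 and 45.0% in the ground state for the 93 genes with no shared stretch. Of the 56, 54 lay in the array and had 2.79% at day 1 and 0% in the ground state. The 7 array genes with no shared stretch had 12.7% and 50.2%, and the day 1 value came from 1 touched gene. The 9 array genes with some sharing, under 50%, had 0% and 11.1%. Outside the array the order was the other way. There, 4 genes with at least 50% shared had 37.5% at day 1 and 62.4% in the ground state, against 32.8% and 44.6% for 86 with none. How the authors treated reads that fit several places is not given in the sources used here, and its part in the low cover of the array was not tested.

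**Figure D4:**
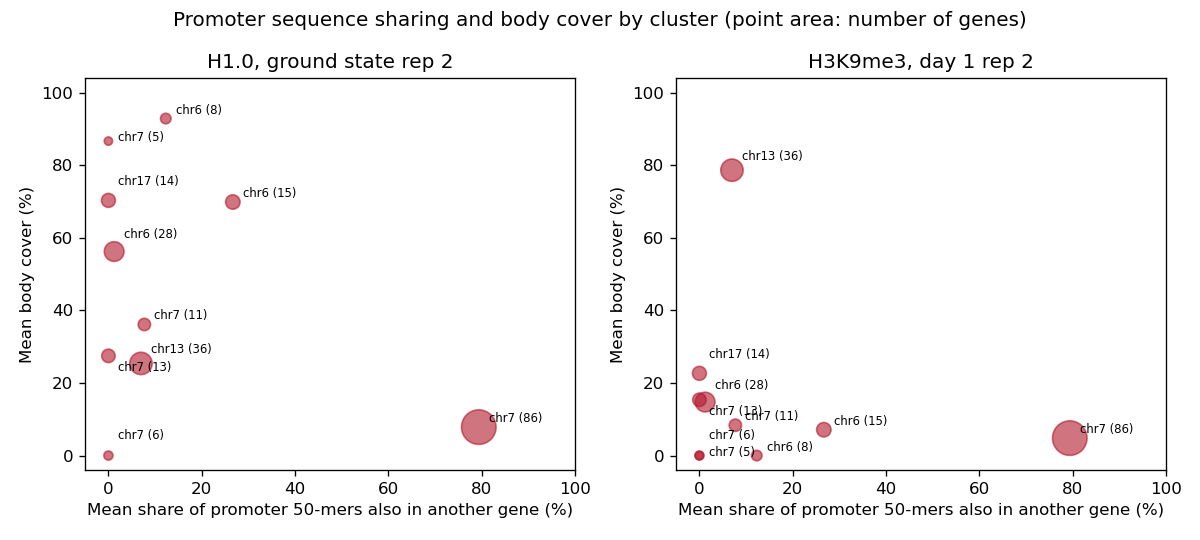
Mean body cover of each Vmn1r cluster with at least 3 promoter windows (vertical axis, in percent, over the genes with a window) against the mean share of 50-base stretches of the window that occur in another gene's window (horizontal axis, in percent), for H1.0 in ground-state replicate 2 (left) and H3K9me3 in day 1 replicate 2 (right); labels give the chromosome and number of genes. The array of 86 genes stands alone at 79.4% shared sequence with low cover by both marks.

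MEF2C peaks were rare near Vmn1r genes under every treatment. A peak lay within 5 kb of the body of 1, 6 and 4 members under siJunb, of 1, 2 and 4 under siH1f0, and of 1 and 3 under siControl. Over all protein-coding genes the shares were 26.6%, 53.8% and 41.8% under siJunb, 44.8%, 52.2% and 34.7% under siH1f0, and 30.1% and 49.2% under siControl. Such shares were not adjusted for gene length, and a longer gene has more room for a peak. The part of sequence shared between genes was not tested either. The highest share in the family was 2.60%, in siJunb replicate 2. Means were 3.67 ± 2.52 genes (SD, n = 3) under siJunb, 2.33 ± 1.53 (SD, n = 3) under siH1f0 and 2 ± 1.41 (SD, n = 2) under siControl, with overlapping groups. In the first naming series 1, 4 and 1 members were near a peak under siJunb, siH1f0 and siControl, and in the second 6 and 4 under siJunb, 1 and 2 under siH1f0 and 3 under siControl. The siH1f0 count was thus above siControl in the first series and below it in the second. The numbers of peaks in these lists were 11731, 49011 and 25790 under siJunb, 22870, 35603 and 17871 under siH1f0, and 14928 and 27791 under siControl. The list with most members near a peak also had most peaks, though siH1f0 replicate 2 covered more bases (89.8 Mb against 77.4 Mb in siJunb replicate 2), and the part of list size in the difference was not tested. No member was near a peak in all lists of a knockdown and none of siControl, or the reverse (0.704% and 1.15% of all protein-coding genes for siJunb, 0.621% and 0.183% for siH1f0), and none separated siJunb from siH1f0 in this way (0.352% and 0.973%). The cluster spans, 11.0 Mb together, held from 5 to 28 peaks per list, and the median distance of a member to its nearest peak ran from 162 to 524 kb. An exact permutation test over libraries cannot go below p = 0.2 for 3 against 2 or 0.1 for 3 against 3.

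Some peak lay within 5 kb of 12 members in at least 1 list (68.4% of all protein-coding genes), and of 1 member in all 8 (16.1%), which was also the single member near a peak in both siControl lists (28.4%). The 12 lay on chromosomes 1, 4, 6, 7 and 17, and the array on chromosome 13 held none. Vmn1r48 was near a peak in siJunb replicates 2 and 3, in the third over the body, and Vmn1r1, Vmn1r40, Vmn1r51 and Vmn1r233 in siJunb replicate 2. Vmn1r2 was near a peak in siJunb replicate 3, and the same peak was within 5 kb of its neighbour Vmn1r3, which had another in siH1f0 replicate 3. Vmn1r4 was overlapped by a peak in siH1f0 replicate 3 and in siControl replicate 2. Vmn1r19 had a peak nearby in siH1f0 replicate 3, Vmn1r236 in siH1f0 replicate 2 and Vmn1r58 in siControl replicate 2. These 11 genes were each near a peak in 1 or 2 of the 8 lists.

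**Figure D5:**
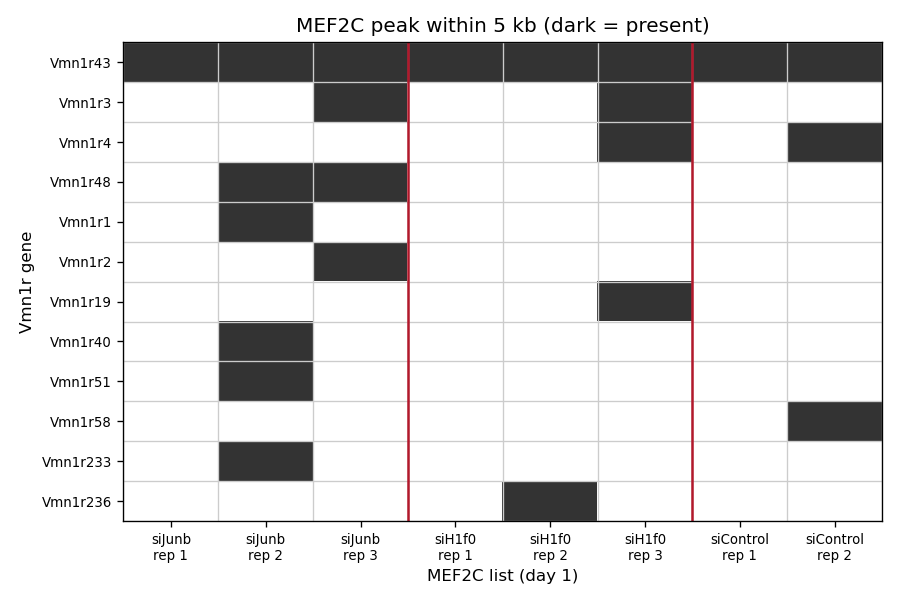
The 12 Vmn1r genes with a MEF2C peak within 5 kb in at least 1 list (rows) by library (columns, siJunb, siH1f0, then siControl); a dark cell means that the list holds such a peak. Vmn1r43 is dark in all 8 columns, and every other gene in 1 or 2.

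Vmn1r43 (chr6:89869461-89870529) was the member with a peak in every list. All 8 lists shared 933 bp, chr6:89867177-89868109, which lies 1352 bp from the gene in the interval towards Vmn1r42. The highest signal in the peak that holds it was 13, 17 and 15 under siJunb, 52, 65 and 13 under siH1f0, and 23 and 127 under siControl. These are the authors' unscaled coverage values and cannot be compared between lists. By total signal within its own list, the peak stood at percentile 80.7, 94.2 and 84.6 under siJunb, 87.2, 93.3 and 88.7 under siH1f0, and 94.1 and 96.6 under siControl. It was thus among the stronger peaks of each list. The shared stretch also lay wholly under H3K9me3 in all 4 lists, at the edge of peaks that in the second naming series spanned 19164 bp at day 1 and 18830 bp in the ground state. H1.0 covered 38.7% and 0% of it at day 1, against 0% and 83.1% in the ground state. The Vmn1r43 body itself had H3K9me3 cover of 0% in all 4 lists, and H1.0 cover of 64.8% and 0% at day 1, against 0% and 69.5% in the ground state. The IgG samples were not analysed here, so a region that any antibody would recover cannot be told apart from MEF2C binding. With every MEF2C list trimmed to equal extent, no member was near a peak in all 8 lists.

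None of the RefSeq promoter windows of Vmn1r genes overlapped a MEF2C peak: 0 of 206 in each of the 8 lists, while between 6.83% and 24.5% of all 32851 windows did. In 56 member windows every stretch of 50 bases also occurs in another gene's window. Whether a peak could be called in such sequence was not tested. Of the 206 windows, 198 lie at the start of the gene in the gene table and 8 up to 32599 bp away. Vmn1r4 is the farthest, and the MEF2C peaks over its body in siH1f0 replicate 3 and siControl replicate 2 span its start in the gene table. The AP-1 motif TGANTCA, the consensus of the dimers that JUNB forms, was found on either strand in 37 member windows, or 18.0%, against 7.81% of all windows. The MEF2 consensus was found in 14 member windows, or 6.80%, against 3.19% of all. Both motifs are rich in A and T, and member windows had a median GC content of 36.0% against 52.7% for all, so the shares differ together with base composition. H3K9me3 touched 10 and 38 member windows at day 1 (4.85% and 18.4%, with 2.80% and 6.92% of all windows), against 4 and 26 in the ground state (1.94% and 12.6%, with 1.55% and 6.81% of all). H1.0 touched 49 and 2 at day 1 (23.8% and 0.971%, with 55.0% and 3.29% of all windows), against 2 and 67 in the ground state (0.971% and 32.5%, with 9.24% and 53.5% of all). The share of member windows was above that of all windows for H3K9me3 and below it for H1.0 in each list, with no test made.

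The related families frame these values. The 124 Vmn2r genes, the other vomeronasal receptor family, had mean H3K9me3 cover of 7.83% and 29.2% at day 1, against 5.34% and 20.3% in the ground state. The 1110 Olfr genes of the main olfactory system had 8.90% and 29.7% at day 1, against 4.45% and 19.7% in the ground state. Both thus had higher means than Vmn1r in each list. The 15 trace amine receptors (Taar) had 0% in all 4, with mean H1.0 cover of 85.2% and 0% at day 1, against 24.8% and 92.4% in the ground state. Of the 7 formyl peptide receptors, some of which are vomeronasal, 3 had at least 50% H3K9me3 cover in day 1 replicate 2 and none in the other lists. The 11 genes of vomeronasal signalling and neuron identity, among them Gnai2, Trpc2 and Plcb2, included 0 with 50% H3K9me3 cover in any list. Of these 11, 4, 5 and 6 had a MEF2C peak within 5 kb under siJunb, 6, 7 and 7 under siH1f0, and 6 and 6 under siControl. The shares over all protein-coding genes were 26.6%, 53.8% and 41.8% under siJunb. They were 44.8%, 52.2% and 34.7% under siH1f0, and 30.1% and 49.2% under siControl. These few chosen genes were not adjusted for length, and no test was made. The 9 fibroblast markers had mean H3K9me3 cover between 0% and 0.579% and the 6 cardiomyocyte markers between 0% and 0.496%.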

How the data were processed

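CUT&RUN peak lists of 16 samples (8 MEF2C, 4 H1.0, 4 H3K9me3) were used, 1 list per sample; 8 IgG samples were not analysed here. Bowtie2, SEACR and mm10 are named, per the submitters' processing notes; versions, the control used and the treatment of reads that fit several places are not given in the sources used here. The deposited lists carry signal, the authors' unscaled coverage (a total and a highest value per peak), which served to rank peaks within a list. The labels give 30 M reads per sample; the number aligned was not used here, and list extent and the spread between samples stand for precision. Samples are labelled as biological replicates with no word on separate cultures, and p-values then measure a spread that may be technical.

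Coordinates are 1-based. Gene positions came from RefSeq (GRCm38.p6, the assembly of mm10; 49943 genes). Overlapping peaks of a list were merged, and cover was computed per gene with numpy 2.4.6 and pandas 2.3.3 under Python 3.11.15, and checked on simulated lists. Groups were compared over libraries with the exact permutation test per gene over all protein-coding genes, adjusted by Benjamini-Hochberg with statsmodels 0.14.6; means over members were given no test. Promoter windows of 206 of the 231 members were matched by gene ID and aligned with biopython 1.88. The alternatives were the stronger 50% of each list by total signal, equal covered length, added flanks, pooled bases, other thresholds and distances, other cluster gaps, pairing by replicate number or naming series, and leaving out each library. Genes were named by rule: the extremes of H3K9me3 in each cluster of at least 5, members near a MEF2C peak, members whose groups do not overlap, the first 10 without H3K9me3, Vmn1r2, and the extremes of H1.0. Other genes named, such as Vmn1r192, Vmn1r215 and those of the chromosome 13 and 7 arrays, were chosen after their values were seen. The members and lists were chosen with earlier results of these data known.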

Additional observations from a re-analysis of the deposited data

How the results depend on the processing

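Groups held 2 or 3 libraries, lists of a mark differed in extent, and no value here passed a test, so each alternative below moves a description; the causes were not tested. The difference between day 1 and ground state in mean H3K9me3 cover (3.85 points) ran from -3.56 to 11.3 points when 1 library was left out, and that in H1.0 cover (-5.60 points) from -21.5 to 10.3; it turned to 0.131 at equal covered length. Genes with at least 50% H3K9me3 cover in all 4 lists (1) became 0 with the stronger 50% of peaks and 0 at equal length, and 1 to 7 with a library left out; for H1.0 (0) the range was 0 to 1. Genes with H3K9me3 higher at day 1 without overlap (4) became 2 with the stronger 50%, 1 at equal length and 1 with 5 kb added on each side, and 4 to 25 with a library left out; those lower (0) became 1 with 5 kb added and 0 to 9. For H1.0, the count higher (1) became 0 and 0 with the stronger 50% and at equal length, and 1 to 33 with a library left out; the count lower (3) became 0 and 0, and 3 to 75. For H3K9me3, the difference was -3.56 without day 1 replicate 2 and -1.93 without ground-state replicate 1. Genes past 50% were 2 without day 1 replicate 1 and 7 without ground-state replicate 1, those higher 25 without day 1 replicate 1 and 13 without ground-state replicate 2, and those lower 2 without day 1 replicate 2 and 9 without ground-state replicate 1. For H1.0, the difference was 5.30 without day 1 replicate 2 and 10.3 without ground-state replicate 2. Its count higher was 33 without day 1 replicate 2 and 3 without day 1 replicate 1 or ground-state replicate 2, and its count lower 75 without ground-state replicate 1 and 5 without either of the same 2 libraries. The siJunb minus siControl difference in members near MEF2C (1.67 genes) was -0.167 for peaks that overlap the body, 14.5 within 50 kb and -0.333 at equal length, and 0.5 to 3 with a library left out. The siH1f0 minus siControl difference (0.333) was -0.167, 4.83 and -0.333 under these settings, and -0.667 (without siControl replicate 1) to 1.33; without siH1f0 replicate 3 it was -0.5. The siJunb minus siH1f0 difference (1.33) was 9.67 within 50 kb, and 0.167 to 2.67. Members near a peak in any list (12) were 2 for overlap with the body, 4 within 1 kb, 64 within 50 kb, 4 with the stronger 50%, 2 at equal length, and 8 to 12 with a library left out. Clusters numbered 21 with a gap of 200 kb and 14 with 1 Mb. With replicate numbers as a block (pairing by number), the H1.0 count higher at day 1 became 2 and the siH1f0 minus siControl difference -0.5; the H3K9me3 count higher became 6. Deviations of same-numbered libraries correlated at 0.587 for H3K9me3 and -0.390 for H1.0, across genes; with H1.0 numbers crossed, an alternative chosen after seeing the data, 1 gene was higher and 4 lower. Of all alternatives, 88 did not reverse a difference and stayed within its replicate spread, or kept a count within a fixed ratio. The others moved the value (33) or reversed its sign (12), and a reversal could lie within the spread. Pairing cannot change the mean cover differences, which were counted among the 88. For H1.0 cover the same-numbered pairs gave 21.2 points (replicates 1) and -32.4 points (replicates 2).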
